A study of Rattus norvegicus with 18 samples.

Results

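Collagen chain genes were taken as the rat genes whose symbol has the form Col, a number, a and a number, and 44 of the 38445 genes counted met that rule. They were measured as RNA from dissected ventral tegmental area, the midbrain region that holds dopamine neurons, in 18 wild-type adult male Sprague Dawley rats, each giving 1 library. Control animals (numbered 1 to 6) received Lieber-DeCarli liquid diet alone. The other 12 had 9% v/v ethanol in that diet over 15 or 16 days, and were sampled at its end (0 h, the chronic ethanol group, numbers 7 to 12) or 24 h later (the withdrawal group, numbers 13 to 18). All 3 groups therefore shared liquid feeding, and the tissue was a bulk dissection, so that fewer cells of a type and less RNA per cell cannot be told apart.

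Collagens are trimers of chains wound into a triple helix, and each chain has its own gene. Fibrillar collagens (types I, II, III, V, XI, XXIV and XXVII) assemble into fibrils, and in the brain types I and III are known mainly from the meninges and the walls of larger vessels. The type IV chains form the network of basement membranes, which in brain tissue lie along blood vessels and beneath the pia. The other classes decorate fibrils (the FACIT collagens), form beaded filaments (type VI) or short-chain networks (types VIII and X), or span the cell membrane.

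The 6 type IV genes lie in 3 head-to-head pairs, and the sequences between or before their starts are shown because the steadiest and the most variable basement membrane chains come from pairs of the same layout. In the Rnor_6.0 coordinates of the files, Col4a2 (minus strand, chr16:83386388-83522169) and Col4a1 (plus strand, chr16:83522162-83632153) overlap by 8 bases at their starts. Between Col4a4 (minus strand, chr9:88314763-88357183) and Col4a3 (plus strand, chr9:88357528-88484735) lie 344 bases. Between Col4a6 (minus strand, chrX:112405647-112768337) and Col4a5 (plus strand, chrX:112769595-112983720) lie 1257 bases. The sequences come from RefSeq on the GRCr8 build, where 76, 412 and 1414 bases separate the starts of these pairs. The first is the whole stretch between the starts of Col4a2 and Col4a1, at chr16:84885521-84885596. The other stretches are the 250 bases before the starts of Col4a3 (chr9:91323740-91323989) and Col4a5 (chrX:109907109-109907358). All are written on the plus strand, and capitals mark GGGCGG, a GC box, or its reverse complement CCGCCC.
Col4a2 and Col4a1: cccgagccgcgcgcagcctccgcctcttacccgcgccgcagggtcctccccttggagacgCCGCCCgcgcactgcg
Col4a3: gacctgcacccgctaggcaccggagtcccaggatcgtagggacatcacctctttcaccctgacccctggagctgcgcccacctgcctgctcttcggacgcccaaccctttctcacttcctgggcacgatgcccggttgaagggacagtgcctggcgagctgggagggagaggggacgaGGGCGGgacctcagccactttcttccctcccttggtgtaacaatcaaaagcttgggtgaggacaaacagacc
Col4a5: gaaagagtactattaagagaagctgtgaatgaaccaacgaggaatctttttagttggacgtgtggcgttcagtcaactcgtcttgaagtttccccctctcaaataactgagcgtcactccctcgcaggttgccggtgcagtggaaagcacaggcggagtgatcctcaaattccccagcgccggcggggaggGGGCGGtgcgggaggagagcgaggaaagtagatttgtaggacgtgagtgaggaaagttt

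Each of these 3 stretches held a single GC box. Promoter windows of 300 bases (250 before and 50 after the start) were found for 35 of the 44 collagen genes and searched on both strands. GGGCGG was present in 19 of these 35 windows, against 33.1% of all 33469 windows in the table. CCAAT was present in 11 of 35, against 37.5% of all windows, and TATAAA in 4 of 35, against 14.2%. Each motif was counted on its own, also where matches of different motifs share bases, and a match describes letters in a window, not a bound site.

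Libraries held 29.6 to 45.1 M counted fragments (median 38.4 M), so that 3 counts, the upper limit that a count of 0 allows, stood for 0.0665 to 0.101 CPM, the counts scaled to library size. Limits of this kind cover counting error only, and the reads carried no molecular identifiers. The defining dopamine neuron markers (8 genes, among them Th and Slc6a3) summed to 385 to 3389 CPM over the rats, and none was listed at 0 in all libraries. Withdrawal rat 17 went against the labelled region in Th, which makes the dopamine precursor, and Slc6a3, the dopamine transporter: it had 17.6 and 2.56 CPM, against 69.0 to 763 and 68.2 to 788 CPM in the other rats. Control rats 3 and 5, chronic ethanol rat 8 and withdrawal rat 13 stood apart in collagen levels. Several collagen changes that rest on them, or on rat 17, are therefore given with and without them. Values for the lists of other genes are not given without rat 13. Library names carry 3 first index sequences, which set rats 1 to 8, 9 to 16 and 17 to 18 apart. All control rats and chronic ethanol rats 7 and 8 carry the first, and no withdrawal rat does. In withdrawal against control, index and treatment therefore cannot be told apart directly, only by way of the chronic ethanol rats.

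Of the 44 genes, 42 had counts in every library and 40 passed the filter on low counts and were tested. Col15a1 and Col10a1 fell below that filter. The median level of Col15a1, a multiplexin of vascular basement membranes, was 0.127 CPM in withdrawal rats, yet rat 13 reached 4.86 CPM, against 0.0335 to 0.469 CPM over the control and chronic ethanol rats. Col10a1, the chain of hypertrophic cartilage, ranged from 0.0253 to 0.381 CPM over all rats. Col1a2, which encodes the partner chain of Col1a1 in type I collagen, and Col23a1, a transmembrane collagen, were listed at 0 in all 18 libraries. So were 9311 genes of the table in all, among them Polr2i, an RNA polymerase II subunit that every cell uses, so these zeros are given as listed values only. No exon base of Col1a2 or Col23a1 was shared with another listed gene on the same strand.

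Among the collagen genes with counts, Col16a1, Col11a2 and Col9a3 were the highest per length. Col1a2 and Col23a1, listed at 0, are left out of these orders and sums. Summed over its members, the fibrillar class had the highest level per length, with a median of 71.6 CPM per kb of exon over the rats, followed by FACIT collagens at 63.6 and basement membrane collagens at 36.3 CPM per kb. The transmembrane class followed at 8.47 and the beaded filament class at 7.80 CPM per kb. Per length, the order of single genes by their median over 18 rats was Col16a1 (27.3 CPM per kb), Col11a2 (26.3), Col9a3 (20.9), Col4a2 (16.4), Col4a1 and Col5a3 (both 11.8), Col9a2 (9.51) and Col5a2 (9.31). The ranges of neighbours among these 8 genes overlapped over the rats, and Col16a1 and Col11a2 covered almost the same range. Col3a1 stood at rank 17 with 2.45 CPM per kb and Col1a1 at rank 23 with 1.16 CPM per kb. Col1a1 and Col3a1, chains of the classic fibrils of connective tissue, were thus not among the first 16.

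**Figure D1:**
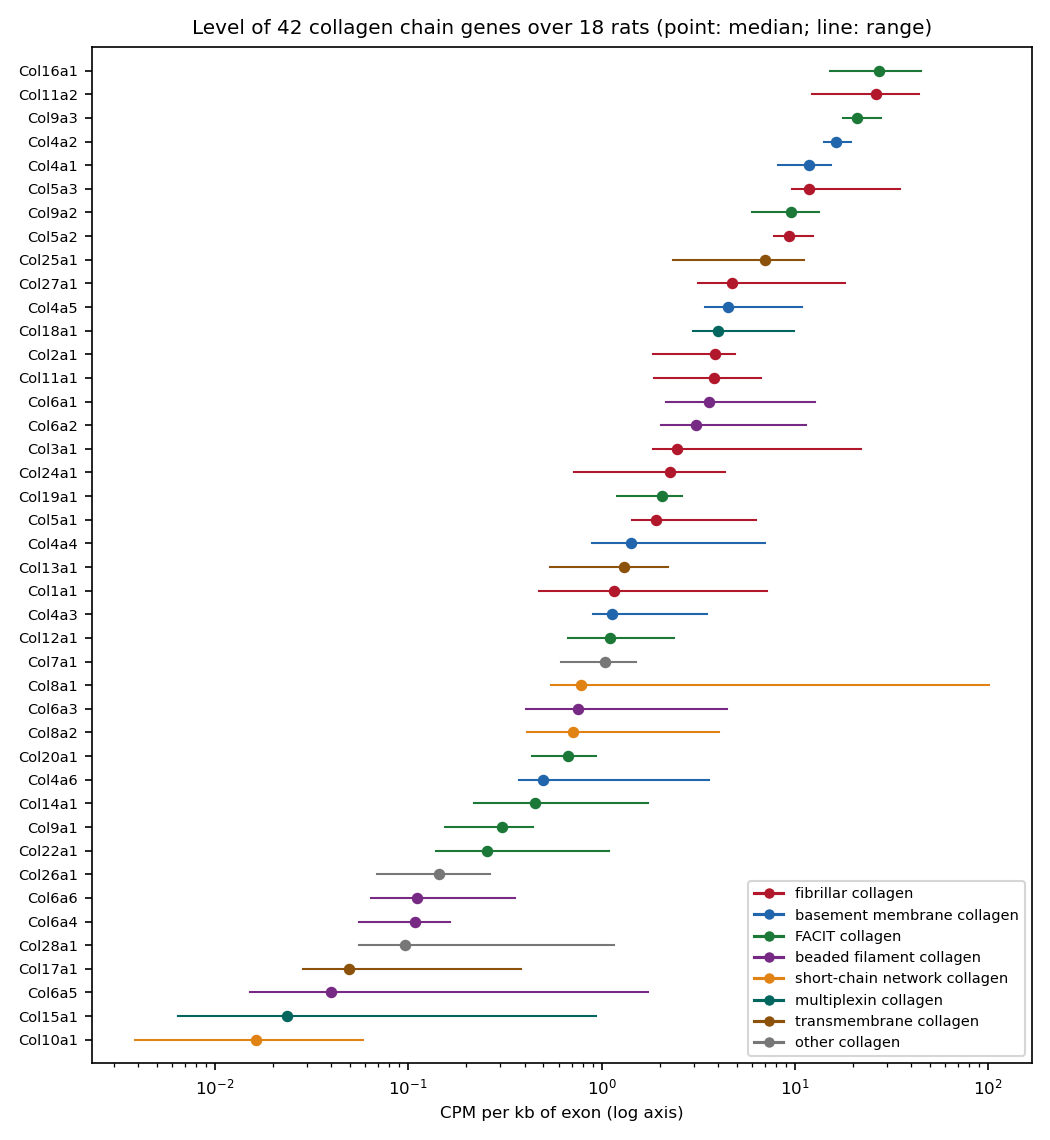
Level of the 42 collagen genes with counts, in CPM per kb of exon on a log axis; points are the median of 18 rats, lines run from the lowest to the highest rat, and colours mark the classes. Col16a1, Col11a2 and Col9a3 lead, and Col8a1 has the longest line, up to rat 13.

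The genes also differed in how steady they were among rats. The coefficient of variation of CPM over 18 rats was 0.107 for Col4a2, 0.116 for Col9a3, 0.147 for Col5a2 and 0.168 for Col4a1. It was 0.866 for Col1a1, 1.12 for Col3a1, 2.88 for Col6a5 and 3.59 for Col8a1. Within the type IV genes it ran from 0.107 for Col4a2 to 1.04 for Col4a6.

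No collagen gene passed the test in any of the 3 comparisons. By edgeR's quasi-likelihood test with Benjamini-Hochberg adjustment, 0 of 40 collagen genes were called in each, and the share of all 17637 tested genes called was 0% as well. At an unadjusted p under 0.05, 3 collagen genes were found for chronic ethanol against control (1 higher and 2 lower, beside 3.1% and 2.74% of all genes), where 1030 genes or 5.84% of all were found. For withdrawal against control there were 5 (4 higher and 1 lower, beside 6.24% and 3.58% of all genes), beside 1732 genes or 9.82% of all. In withdrawal against chronic ethanol there were 6 (5 higher and 1 lower, beside 9.38% and 5.95% of all genes), beside 2704 genes or 15.3% of all. With all 18 rats the members' shares thus lay near the background in each comparison. DESeq2 called 46, 47 and 301 genes in these comparisons, and its only collagen gene was Col20a1 in withdrawal against control. It gave no p for Col4a6, Col6a5, Col8a1, Col27a1 and Col28a1 in any comparison, and no adjusted p for Col26a1 in withdrawal against control. These could therefore not be called by it. With limma-voom 2, 0 and 0 genes were called, none a collagen.

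Without control rat 3 the numbers of collagen genes at an unadjusted p under 0.05 were 3, 11 and 10, beside 5%, 9.36% and 14.8% of all genes, and again none was called, beside 0%, 0.00563% and 0.00563% of all genes. Without rats 3, 5, 8 and 13 they were 6, 9 and 5, beside 9.56%, 9.37% and 16.8%. Without withdrawal rat 13 they were 4, 4 and 1, beside 10.7%, 8.6% and 13.9%, and without withdrawal rat 17 they were 3, 6 and 6, beside 5.8%, 10.2% and 15.1%. Without rats 5, 8, 13 and 17 they were 6, 3 and 0, beside 13%, 7.72% and 13.1%. For withdrawal against control the 11 and the 9 were above the background share and the 3 and 4 were near it, so the count depended on which rats were left out. The comparisons with control share the same control rats, and the pairs of comparisons that include chronic ethanol or withdrawal share those rats.

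Col20a1, a FACIT chain, had the lowest p of the collagen genes in both comparisons with control. Its lowest, median and highest values were 7.39, 8.77 and 9.66 CPM in control rats. They were 5.65, 6.39 and 7.26 CPM in chronic ethanol rats and 4.54, 6.01 and 7.30 CPM in withdrawal rats. Every control rat was above every ethanol-fed rat of either group. The log2 change was -0.41 ± 0.11 (SE, n = 6 and 6) for chronic ethanol against control, with an edgeR adjusted p of 0.453, and -0.51 ± 0.11 for withdrawal against control, with an adjusted p of 0.284. DESeq2 gave an adjusted p of 0.0643 and of 0.00704 for these changes. Col20a1 was the only collagen gene whose groups did not overlap in either comparison, where 0.93% and 0.607% of all tested genes did not (0.408% and 0.38% lower, 0.522% and 0.227% higher). For withdrawal against chronic ethanol every collagen gene overlapped, while 1.36% of all genes did not (0.811% higher, 0.544% lower). With the index as a term the changes were -0.28 ± 0.15 and -0.22 ± 0.19, at adjusted p of 0.788 and 0.803. That fit rests the first change on chronic ethanol rats 7 and 8, and withdrawal rats 17 and 18 take no part in the second. The lowest value was that of rat 17, and without it the change in withdrawal against control was -0.45 ± 0.11 (edgeR adjusted p = 0.297). Red blood cell markers (5 genes, led by Hba-a1 and Hbb) moved the same way, with sums of 186 to 527 CPM in control, 53.0 to 237 in chronic ethanol and 93.5 to 175 CPM in withdrawal. All 5 were lower at an unadjusted p under 0.05 in both comparisons with control, at median log2 changes of -1.34 and -1.36 (-1.18 and -1.21 without rat 3), and none was called. Their part in the Col20a1 difference was not tested.

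Col7a1, which encodes the anchoring fibril chain of skin, had the next lowest p for chronic ethanol against control. Its values in control rats were 5.74, 7.46 and 10.8 CPM (lowest, median, highest), and the highest was rat 3. They were 9.47, 9.97 and 13.4 in chronic ethanol and 7.50, 11.2 and 13.9 CPM in withdrawal. With rat 3 the groups overlapped, and without it every chronic ethanol rat was above every control rat. Leaving out the highest control rat makes such a separation easier. The share of all tested genes that did not overlap without rat 3 was not computed. The log2 change was 0.47 ± 0.16 for chronic ethanol against control (edgeR adjusted p = 0.731), or 0.59 ± 0.15 without rat 3 (adjusted p = 0.558). Withdrawal against control gave 0.46 ± 0.16 (adjusted p = 0.424). Of its 9238 exon bases, 36 are shared with the microRNA gene Mir711 on the same strand.

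**Figure D2:**
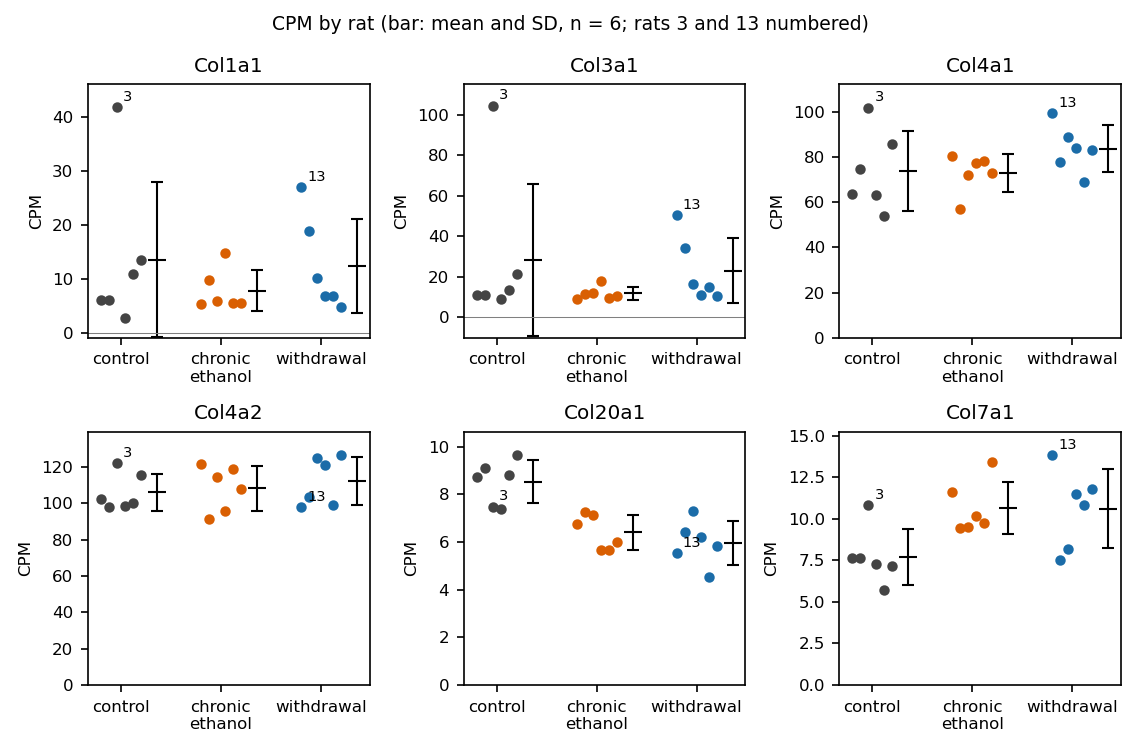
CPM of 6 collagen genes in each rat, by group, with the group mean and SD beside the points (n = 6) and rats 3 and 13 numbered. Control rat 3 lies far above the other control rats for Col1a1 (41.8 CPM) and Col3a1 (105 CPM), while the Col4a2 groups cover almost the same range and the Col20a1 control rats lie above all others.

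Among the fibrillar chains, Col1a1 and Col3a1 were low and were set by a few rats. Col1a1, the main chain of type I collagen, had a lowest, median and highest value of 2.76, 8.46 and 41.8 CPM in control rats. In chronic ethanol they were 5.36, 5.66 and 14.7 CPM, and in withdrawal 4.64, 8.38 and 27.0 CPM. Control rat 3 and withdrawal rats 13 and 14 (27.0 and 18.8 CPM) were the highest, and all groups overlapped. Col3a1, the chain of type III collagen, followed the same rats, with 8.76, 12.1 and 105 CPM in control, 8.93, 11.0 and 17.6 in chronic ethanol and 10.2, 15.6 and 50.4 CPM in withdrawal.

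Chronic ethanol against control gave a log2 change of -1.28 ± 0.58 for Col3a1 (edgeR adjusted p = 0.838) and of -0.80 ± 0.56 for Col1a1 (adjusted p = 0.974). Without control rat 3 these were -0.16 ± 0.37 and -0.02 ± 0.47. For withdrawal against control the sign turned with that rat: Col3a1 went from -0.31 ± 0.57 to 0.80 ± 0.38 and Col1a1 from -0.13 ± 0.56 to 0.64 ± 0.47. Their edgeR adjusted p stayed above 0.05 in all of these fits.

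Col1a1 and Col3a1 varied together. Over 18 rats the log2 CPM of the pair had a Pearson r of 0.930 and a Spearman rho of 0.957 (two-sided permutation p = 1e-05 for both, the smallest that 100000 permutations can give; adjusted over 5 pairs, 5e-05). Without rats 3 and 13, the farthest from the median of Col1a1, r was 0.870 (adjusted permutation p = 0.0001). Within rats 1 to 8 and rats 9 to 16 r was 0.917 and 0.965 (exact permutation, adjusted p = 0.000124 and 0.000868). Rats 17 and 18 are too few for a value of their own. The planned pair of Col1a1 and Col1a2 gave no value because Col1a2 was listed at 0.

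The other 8 tested fibrillar genes ranged from steady ones, such as Col5a2, to Col5a1 and Col27a1, which a few rats set. Col11a2, which encodes a type XI chain that controls fibril diameter, was the highest of them at 223 ± 21.6 CPM in control, 273 ± 68.6 in chronic ethanol and 200 ± 50.3 in withdrawal (SD, n = 6). Its change in withdrawal against chronic ethanol, -0.45 ± 0.17 on the log2 scale, was among the 3 lowest p of the collagen genes there (edgeR adjusted p = 0.265). The groups ran from 193 to 392 CPM and from 109 to 246 CPM and overlapped. Rat 13 gave the 109 CPM, and the next lowest withdrawal rat had 189 CPM. Without rats 3, 5, 8 and 13 the change was -0.35 ± 0.15 (edgeR adjusted p = 0.236). Col11a1, its partner in type XI fibrils, stood at 28.5 ± 7.85, 37.7 ± 12.8 and 31.2 ± 7.54 CPM in control, chronic ethanol and withdrawal.

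The type V chains, which nucleate type I fibrils, differed from each other. Col5a3 had 72.2 ± 8.93, 78.2 ± 12.0 and 98.6 ± 57.3 CPM in control, chronic ethanol and withdrawal, the last with rat 13 at 215 CPM and the other 5 between 68.0 and 84.2 CPM. Col5a2 had 56.2 ± 8.46, 62.9 ± 9.60 and 54.3 ± 5.66 CPM. Col5a1 had 25.2 ± 17.1, 20.4 ± 15.1 and 19.2 ± 3.39 CPM, and its 3 highest rats were chronic ethanol 8 (51.2 CPM), control 3 (50.3 CPM) and control 5 (43.8 CPM).

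Col27a1, a fibrillar chain of cartilage and developing tissues, had 54.7 ± 49.5, 58.5 ± 35.8 and 38.9 ± 7.30 CPM in the same order. Control rat 5 (155 CPM) and chronic ethanol rat 8 (131 CPM) were far above the other 16 rats, whose highest value was 56.2 CPM. Col24a1, its close relative, was lowest in the same rats, at 3.87 and 5.58 CPM. Its groups were 10.8 ± 3.54, 13.4 ± 5.91 and 11.3 ± 3.43 CPM. Col2a1, the cartilage chain, had 20.3 ± 4.69, 20.3 ± 4.85 and 17.4 ± 6.14 CPM, and its 4 lowest rats, 5, 8, 13 and 17, lay between 10.1 and 11.8 CPM.

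Basement membrane chains split into a steady pair and a variable set. Col4a2 had a lowest, median and highest value of 98.1, 101 and 122 CPM in control, 91.3, 111 and 122 in chronic ethanol and 98.0, 112 and 127 in withdrawal. Col4a1, its partner in the common type IV trimer, had 53.8, 69.1 and 102 CPM, then 57.0, 75.0 and 80.1, then 69.0, 83.5 and 99.3 CPM. Both genes overlapped across all groups. Chronic ethanol against control gave a log2 change of 0.03 ± 0.09 for Col4a2 and -0.02 ± 0.13 for Col4a1 (edgeR adjusted p = 0.999 for both). Withdrawal against control gave 0.08 ± 0.09 (adjusted p = 0.747) and 0.18 ± 0.13 (adjusted p = 0.618).

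Per kb, Col4a1 stood at 0.694 ± 0.103 of Col4a2 over 18 rats (SD), from 0.527 to 0.996. Log2 CPM of the pair correlated with r = 0.579 and rho = 0.581 (permutation p = 0.0119 and 0.0122, adjusted over 5 pairs 0.0198 and 0.0203). Without rats 5 and 8, the farthest from the median of Col4a1, r was 0.460 and rho 0.515 (adjusted permutation p = 0.124 and 0.0733), so both stayed positive while the adjusted call was lost. Pearson's r was 0.838 within rats 1 to 8 (exact permutation, adjusted p = 0.0202) and -0.0618 within rats 9 to 16 (exact, adjusted p = 0.886), so it did not hold within both index sets. Col4a1 and Cldn5, a tight junction gene of endothelium, gave r = 0.0635 and rho = 0.263 (permutation, adjusted p = 0.801 and 0.292). Within rats 1 to 8 and rats 9 to 16 that pair gave r = 0.708 and -0.690 (exact permutation, adjusted p = 0.0633 and 0.119).

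Col4a3, Col4a4, Col4a5 and Col4a6, the chains of more specialised membranes, were all highest in withdrawal rat 13. Col4a5 reached 71.7 CPM there, against 22.6 to 31.8 CPM in the other withdrawal rats and 49.7 CPM in control rat 3. Col4a6, its head-to-head neighbour, reached 19.3 CPM in rat 13 and 7.48 CPM in rat 3, against 2.01 to 3.79 CPM in all other rats. Col4a3 reached 19.8 CPM in rat 13, against 5.06 to 9.45 CPM elsewhere, and Col4a4 reached 8.11 CPM, against 1.03 to 2.04 CPM. Both partners of the Col4a4 and Col4a3 pair and of the Col4a6 and Col4a5 pair were thus high in the same rat. Rat 13 was the highest rat for 12 of the 40 tested collagen genes, beside 32.0% of all tested genes. In that rat Col4a2 had 98.0 CPM, or 0.926 times its median rat. Col4a1 had 99.3 CPM, or 1.28 times its median rat, and this was its highest withdrawal value. The listed exons of Col4a4 cover 1152 bases, against 5609 for Col4a3.

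Group values were 30.2 ± 9.69, 29.5 ± 2.07 and 35.1 ± 18.3 CPM for Col4a5 and 6.69 ± 1.18, 6.59 ± 0.99 and 9.07 ± 5.44 CPM for Col4a3 (control, chronic ethanol and withdrawal). Col4a4 gave the largest log2 change of the class in withdrawal against control, 0.98 ± 0.40 (edgeR adjusted p = 0.462), and Col4a6 the largest in withdrawal against chronic ethanol, 1.11 ± 0.49 (adjusted p = 0.306). Without rat 13 these were 0.25 ± 0.22 and 0.20 ± 0.30.

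Fibrillar and basement membrane chains were then set side by side. The median log2 change for chronic ethanol against control was 0.11 over 10 fibrillar genes (6 higher, 4 lower) and -0.02 over 6 basement membrane genes (2 higher, 4 lower), where that of all tested genes was -0.0039. In withdrawal against control it was -0.14 (3 higher, 7 lower) and 0.33 (6 higher), with all genes at 0.01. In withdrawal against chronic ethanol it was -0.22 (3 higher, 7 lower) and 0.36 (6 higher), with all genes at 0.02. None of these genes was called, so the counts describe signs only.

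Without control rat 3 the basement membrane median in chronic ethanol against control turned from -0.02 to 0.13 (6 higher), and the fibrillar median was 0.06 (8 higher, 2 lower). The fibrillar median in withdrawal against control turned from -0.14 to 0.07 (6 higher, 4 lower), and the basement membrane median was 0.45 (6 higher). Without rat 13 the basement membrane median fell to 0.08 in withdrawal against control and to 0.08 in withdrawal against chronic ethanol. Without rats 3, 5, 8 and 13 the basement membrane medians were 0.19 and 0.05, with 6 and 4 of 6 genes higher. Over all settings, these fits included, the fibrillar median ran from -0.24 to 0.07 in withdrawal against control. In withdrawal against chronic ethanol it ran from -0.26 to -0.10.

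Within a rat, the mean log2 CPM of the fibrillar genes exceeded that of the basement membrane genes by 1.20 ± 0.12 in control, 1.18 ± 0.16 in chronic ethanol and 0.87 ± 0.46 in withdrawal (SD, n = 6). Control rats ranged from 0.97 to 1.30, chronic ethanol rats from 0.93 to 1.37 and withdrawal rats from -0.02 to 1.22, so the groups overlapped. Withdrawal rat 13 gave the -0.02, and the other withdrawal rats ran from 0.79 to 1.22. The lower withdrawal mean thus rests in part on rat 13, and no mean without that rat was computed. Without rat 3 the control value was 1.19 ± 0.13 (n = 5), since in that rat both class means were high. Col1a1 and Col3a1 alone had a mean of 3.68 ± 1.30 in control, 3.18 ± 0.46 in chronic ethanol and 3.80 ± 0.94 in withdrawal. The other 8 fibrillar genes had 5.26 ± 0.14, 5.40 ± 0.05 and 5.22 ± 0.14. A mean over 8 genes can vary less by averaging alone, so these spreads cannot be compared with those of Col1a1 and Col3a1. In rats 5 and 8, for example, Col27a1 was high and Col24a1 low.

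**Figure D3:**
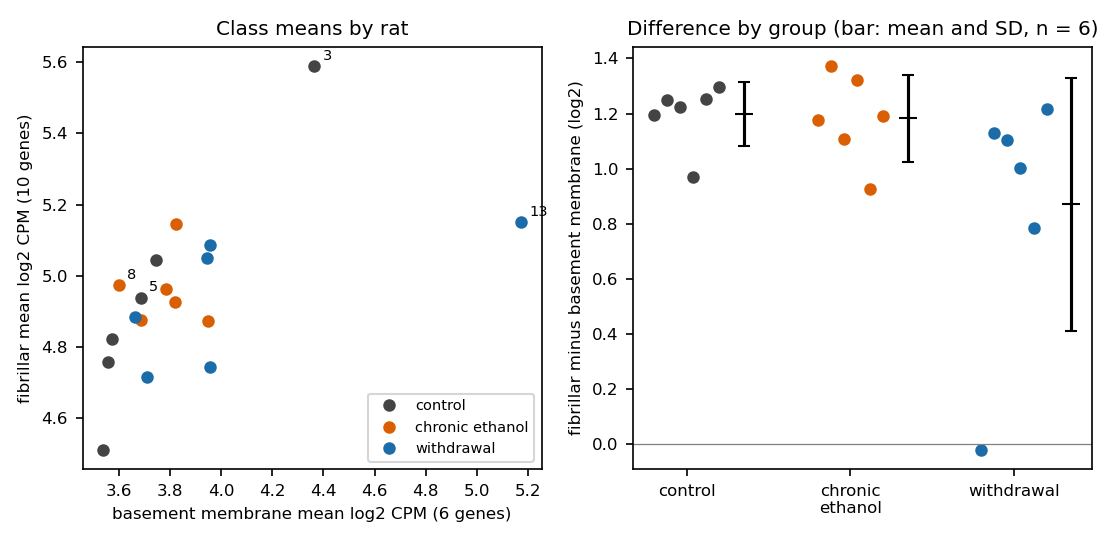
Left, mean log2 CPM of 10 fibrillar genes against that of 6 basement membrane genes in each rat, coloured by group, with rats 3, 5, 8 and 13 numbered. Right, their difference in log2 units by group with mean and SD (n = 6): all rats but rat 13 lie between 0.79 and 1.37.

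**Figure D4:**
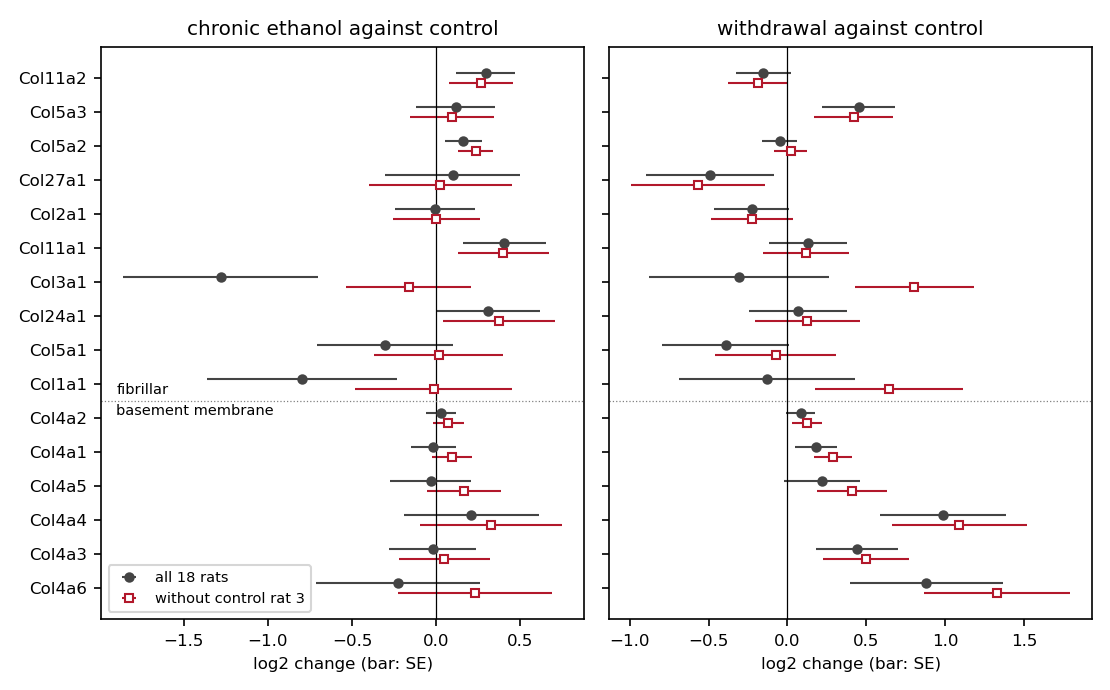
Log2 change with its SE for 10 fibrillar genes (top) and 6 basement membrane genes (bottom) against control, with all 18 rats (filled) and without control rat 3 (open). Col3a1 and Col1a1 move the most when rat 3 is left out, from -1.28 to -0.16 and from -0.80 to -0.02 in chronic ethanol.

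Chains of type VI collagen, the beaded filament of connective tissue, were high in the same rats as the type I and III chains. Col6a1 had 20.1 ± 15.6, 14.0 ± 3.34 and 21.8 ± 13.8 CPM in control, chronic ethanol and withdrawal, with rat 3 at 51.3 and rat 13 at 49.1 CPM. Col6a2, its partner, had 21.7 ± 18.4, 14.8 ± 3.61 and 24.1 ± 15.6 CPM, with the same rats at 58.9 and 54.8 CPM. The ratio of Col6a1 to Col6a2 per kb was 1.20 ± 0.12 over 18 rats (SD). Col6a3, the long chain of the trimer, behaved differently in part. It had 17.1 ± 16.5, 11.0 ± 6.26 and 9.44 ± 4.62 CPM and was highest in control rat 5 (48.4 CPM), ahead of chronic ethanol rat 8 (21.5 CPM). Rats 3 and 13 had 21.2 and 16.0 CPM, or 2.58 and 1.95 times its median rat.

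Col6a4 and Col6a6, relatives of Col6a3, stayed between 0.354 and 3.07 CPM, and Col6a5 was at or below 0.967 CPM in every rat but rat 13, at 16.3 CPM. Col6a5 was therefore among the lowest p for withdrawal against control, with a log2 change of 2.95 ± 0.98 (edgeR adjusted p = 0.403), and for withdrawal against chronic ethanol, with 2.63 ± 0.96 (adjusted p = 0.239). Without rat 13 these were -0.08 ± 0.41 and -0.40 ± 0.41.

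Col8a1, a short-chain network collagen of vessel walls and the corneal membrane, showed the same on a larger scale. In withdrawal its lowest, median and highest values were 1.80, 2.22 and 289 CPM, and rat 13 alone was above 2.71 CPM. In control they were 1.57, 2.16 and 7.62 CPM and in chronic ethanol 1.95, 2.39 and 6.07 CPM. The log2 change was 3.84 ± 1.24 in withdrawal against control (edgeR adjusted p = 0.401) and 4.08 ± 1.26 in withdrawal against chronic ethanol (adjusted p = 0.174). Without rat 13 it was -0.68 ± 0.41 and -0.45 ± 0.41. Col8a2, its partner, was highest in control rat 3, at 17.2 CPM against 1.74 to 6.80 CPM in all other rats.

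FACIT collagens, which bind the surface of fibrils, included some of the most even genes. Col16a1 had 133 ± 22.4, 161 ± 44.7 and 152 ± 35.1 CPM in control, chronic ethanol and withdrawal. The type IX chains Col9a3 (56.3 ± 6.09, 52.7 ± 4.14 and 59.7 ± 7.80 CPM) and Col9a2 (33.5 ± 3.33, 36.7 ± 6.56 and 33.0 ± 8.91 CPM) were well above Col9a1, which stayed between 0.594 and 1.69 CPM. Col19a1 had 21.3 ± 2.58, 22.1 ± 3.06 and 21.5 ± 5.03 CPM. Col12a1 had 14.0 ± 4.03, 12.7 ± 2.91 and 17.8 ± 6.32 CPM. Col14a1 lay between 1.39 and 11.0 CPM and was highest in rats 13 and 3, while Col22a1, a chain of tissue junctions, was highest in rats 5 (6.77 CPM) and 8 (4.76 CPM).

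Among the remaining classes, Col18a1, the multiplexin that releases endostatin, had 28.2 ± 15.3, 22.9 ± 7.41 and 20.8 ± 3.49 CPM in control, chronic ethanol and withdrawal, and rats 3, 5 and 8 held its 3 highest values. Col25a1, a transmembrane collagen of neurons, had 19.4 ± 5.54, 17.6 ± 6.84 and 15.0 ± 5.56 CPM. Col13a1, a transmembrane collagen of the neuromuscular junction, had 8.37 ± 3.26, 7.43 ± 2.91 and 6.98 ± 2.79 CPM. Both were lowest in rats 8 and 17. Col17a1, Col26a1 and Col28a1 stayed at or below 4.84 CPM, and Col17a1 was highest in rats 5 and 8.

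**Figure D5:**
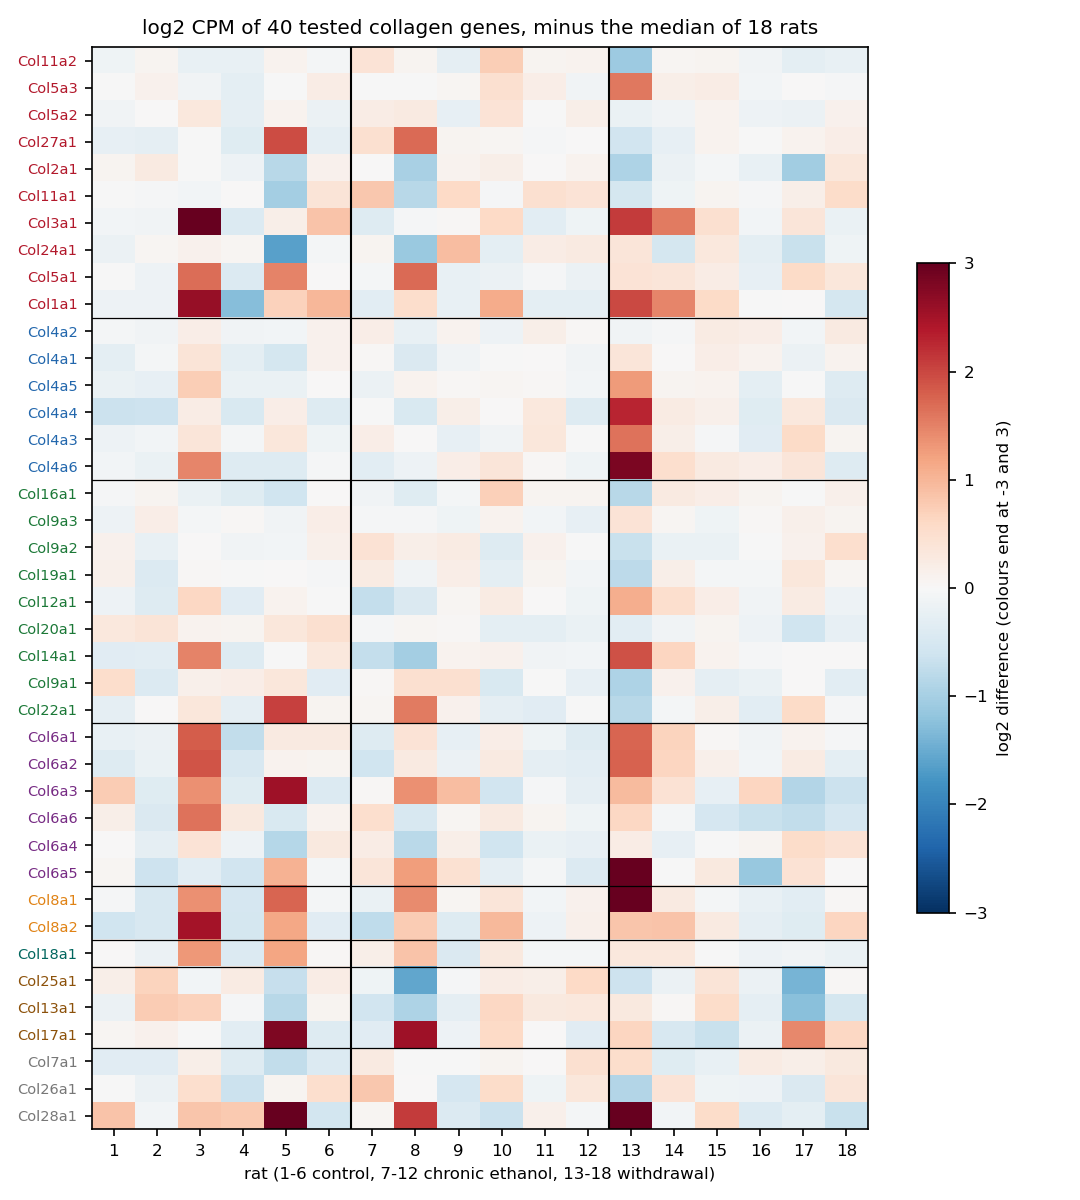
Log2 CPM of the 40 tested collagen genes (rows, grouped by class) in each rat (columns, grouped by treatment), minus the gene's median over 18 rats; red is above and blue below. Columns 3, 5, 8 and 13 hold most of the strong colours, and Col4a1, Col4a2 and Col9a3 are pale throughout.

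Strong departures gathered in 4 rats. Control rat 3 had 12 of 40 tested collagen genes at least 2 times their median rat, where 3.24% of all tested genes were. Withdrawal rat 13 had 14, beside 11.1% of all genes, control rat 5 had 10, beside 3.63%, and chronic ethanol rat 8 had 8, beside 3.05%. In the other 14 rats the number was 0 to 2. The 8 genes of rat 8 (Col17a1, Col5a1, Col28a1, Col27a1, Col22a1, Col6a5, Col6a3 and Col8a1) were all among the 10 of rat 5, and 7 genes (Col14a1, Col3a1, Col1a1, Col8a1, Col6a1, Col6a2 and Col4a6) were shared by rats 3 and 13.

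Markers of some other cells were high in some of these rats. In control rat 3 the 12 meningeal and perivascular fibroblast markers, led by Igf2 and Dcn, summed to 607 CPM, against 73.7 to 136 CPM in the other control rats, 62.5 to 166 in chronic ethanol and 98.9 to 185 in withdrawal. Of the 12, 11 were highest in rat 3, and Ogn was listed at 0 in all libraries. The 5 vascular smooth muscle markers, led by Tagln and Acta2, summed to 953 CPM there, against at most 184 CPM in the other control rats, 102 in chronic ethanol and 185 CPM in withdrawal. Endothelial markers (12 genes, led by Slc2a1 and Cldn5) summed to 586 to 899 CPM in control, 725 to 873 in chronic ethanol and 637 to 948 in withdrawal. Pericyte markers (7 genes, led by Rgs5 and Vtn) summed to 187 to 301, 219 to 267 and 229 to 277 CPM. In withdrawal rat 13 the fibroblast markers summed to 168 CPM, with Igf2 at 33.5 CPM, within the range of other rats. Withdrawal rat 14 had the higher sum, 185 CPM, so the list as a whole did not set rat 13 apart. Dcn, Slc6a13 and Lum, which are only part of that list, stood at 42.8, 44.8 and 8.21 CPM in rat 13. All rats but 3 and 13 had at most 18.5, 18.8 and 7.30 CPM of these. Values of the remaining fibroblast markers by rat are not given. The part of any of these cells in the collagen levels was not tested.

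Col1a1 correlated with Dcn, a fibroblast proteoglycan, over 18 rats with r = 0.825 and rho = 0.701 (permutation p = 6e-05 and 0.00163, adjusted over 5 pairs 0.00015 and 0.00407). Without rats 3 and 13 r was 0.566 (adjusted permutation p = 0.0557), so its passing rests on those rats. Within rats 1 to 8 and rats 9 to 16 r was 0.878 and 0.717 (exact permutation, adjusted p = 0.0144 and 0.0638). Col1a1 and Col4a1 gave r = 0.499 and rho = 0.340 (permutation p = 0.0358 and 0.169, adjusted p = 0.0447 and 0.212). Without rats 3 and 13 r was 0.110 (adjusted permutation p = 0.696), so that relation also rests on those rats, and within the index sets r was 0.536 and 0.627 (exact permutation, adjusted p = 0.170 and 0.119).

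In withdrawal rat 13 the 4 pineal markers (Tph1, Aanat, Asmt and Crx) summed to 15872 CPM, against 2.59 to 9.85 CPM in all other rats. The 6 choroid plexus markers, led by Ttr, summed to 397 CPM there, against at most 24.0 CPM in the others. Rat 13 was the highest rat for 32.0% of all tested genes. In control rat 5 and chronic ethanol rat 8 the hindbrain markers summed to 42.2 and 40.1 CPM, against at most 4.57 CPM elsewhere, with Hoxa2 and Hoxa5 listed at 0 in every library. The part of these tissues in the collagen levels was not tested.

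Genes that make, process, bind and break down collagen gave no call either. In chronic ethanol against control, where 5.84% of all tested genes reached an unadjusted p under 0.05, 0 of 18 tested genes of collagen synthesis and secretion did so, against 2 lower of 13 for processing and crosslinking. The numbers were 1 higher of 8 for breakdown, 1 lower of 10 for receptors, 1 higher and 1 lower of 16 for basement membrane partners and 0 of 10 for fibril partners. The lowest p was that of Adamts14, a procollagen N-proteinase, at a log2 change of -1.06 ± 0.23 (edgeR adjusted p = 0.281) from 1.59 ± 0.64 CPM in control to 0.759 ± 0.140 in chronic ethanol rats. Sparc, a secreted collagen-binding protein, gave 0.24 ± 0.11 (adjusted p = 0.840).

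In withdrawal against control the lists gave 0 of 18, 2 lower of 13, 1 higher of 8, 1 lower of 10, 2 higher and 1 lower of 16, and 1 higher of 10, in the same order, beside 9.82% of all tested genes. The median log2 change of the 10 tested fibril partners was 0.06 (5 higher, 5 lower), and 0.49 without control rat 3 (10 higher). The 11 tested fibroblast markers moved with them, from a median of -0.46 (3 higher, 8 lower) to 0.45 without that rat (11 higher), and their part was not tested. Dcn and Lum, small proteoglycans that bind fibrils, are in both lists, as is Ogn, listed at 0. Mmp14, a membrane collagenase, gave 0.71 ± 0.30 (edgeR adjusted p = 0.483) and Fbn1, the microfibril chain fibrillin, 0.66 ± 0.26 (adjusted p = 0.453).

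In withdrawal against chronic ethanol they gave 1 higher of 18, 0 of 13, 2 higher and 1 lower of 8, 1 lower of 10, 4 higher and 1 lower of 16, and 2 higher of 10, beside 15.3% of all tested genes. The fibril partners had a median log2 change of 0.36 (10 higher) and the fibroblast markers one of 0.23 (11 higher). Dcn, in both lists, stood at 42.8 CPM in rat 13, against 10.6 to 18.5 CPM in the other withdrawal rats. Igf2, a fibroblast marker, stood at 33.5 CPM in rat 13, against 36.4 to 100 CPM in those rats. How far the values of these lists in the comparisons with withdrawal rest on rat 13 was not tested. Timp4, a metalloproteinase inhibitor, had the lowest p and stood at 57.7 ± 8.72 CPM in chronic ethanol rats and 40.1 ± 6.36 in withdrawal rats, with a log2 change of -0.52 ± 0.12 (edgeR adjusted p = 0.0861). The laminin chains Lama4 and Lamc1, which lie beside type IV collagen in vessel membranes, gave 0.39 ± 0.12 (adjusted p = 0.181) and 0.45 ± 0.15 (adjusted p = 0.192).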

How the data were processed

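The authors deposited raw fragment counts over RefSeq exons of Rnor_6.0, made by featureCounts 1.5.0 with reverse strand counting, per the file headers. Reads were aligned with STAR 2.5.2a, per the submitters' processing notes, which also name R 3.3.3 and limma. Symbols came from a RefSeq table of a later build, used for names, and 29322 genes had one.

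From these counts, 17637 genes passed filterByExpr and were scaled with TMM and tested with edgeR 4.0.16 in R 4.3.3 (quasi-likelihood F-test, group only, all 18 rats, two-sided, Benjamini-Hochberg over all genes, called at an adjusted p under 0.05). The SE was derived from the change and its F statistic. CPM values carry the TMM factors, and log2 CPM has a prior count of 2. The common biological coefficient of variation was 0.270. The fit was tested on simulated data. No libraries were copies of each other.

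The collagen genes, classes and lists were chosen with earlier results of these data known. Genes were named where their mean was at least 5 CPM, or where they held one of the 3 lowest p of the collagen genes in a comparison. For the other lists, the 2 genes with the lowest p qualified, and not all are described. Alternatives were RLE factors, other filters, robust fitting, the index as a term, DESeq2 1.42.0, limma-voom 3.58.1, 2 groups only and rats left out. A fit without rats 3, 5, 8 and 13 was chosen after seeing the data. The planned protein analysis was not run.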

Additional observations from a re-analysis of the deposited data

Results flagged for a closer look

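In each group of 6 rats, the highest and lowest value of each collagen gene with a mean of at least 1 CPM was compared with the gap to its nearest neighbour by Dixon's ratio on log2 CPM at its 95% critical value. Of 108 such groups, 28 held a rat far from the others, where chance gives about 1 in 20 for normally spread values. The share over all tested genes was not computed, so the count cannot be read as particular to collagen genes. Rat 13, for one, was the highest rat for 32.0% of all tested genes. The 28 groups concern 21 genes and 5 rats.

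Control rat 3 was far above the other control rats for 6 genes: Col3a1 (105 CPM), Col6a2 (58.9 CPM), Col4a5 (49.7 CPM), Col14a1 (8.20 CPM), Col4a6 (7.48 CPM) and Col6a6 (3.07 CPM). Withdrawal rat 13 was far above the other withdrawal rats for 7: Col8a1 (289 CPM), Col5a3 (215 CPM), Col4a5 (71.7 CPM), Col4a6 (19.3 CPM), Col6a5 (16.3 CPM), Col14a1 (11.0 CPM) and Col4a4 (8.11 CPM). It was far below them for 3, namely Col11a2 (109 CPM), Col16a1 (84.0 CPM) and Col19a1 (12.6 CPM).

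Control rat 5 was high for Col27a1 (155 CPM) and Col22a1 (6.77 CPM) and low for Col11a1 (14.7 CPM) and Col24a1 (3.87 CPM). Chronic ethanol rat 8 was high for Col27a1 (131 CPM), Col5a1 (51.2 CPM), Col8a1 (6.07 CPM) and Col22a1 (4.76 CPM). It was low for Col4a1 (57.0 CPM), Col2a1 (10.6 CPM) and Col25a1 (5.88 CPM). Control rat 2 was low for Col19a1 (16.5 CPM).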

How the results depend on the processing

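No paired analysis was possible because the rats of the 3 groups carry different numbers in the labels. The count of collagen genes called stayed at 0 in every comparison under every setting, except for 1 gene (Col20a1) with DESeq2 in withdrawal against control. DESeq2 gave no p for Col4a6, Col6a5, Col8a1, Col27a1 and Col28a1, so its count leaves them out. Over all genes, chronic ethanol against control gave 1 call at an adjusted p of 0.10, 2 with the index as a term, 2 with only these groups, 46 with DESeq2, 2 with limma-voom, 2 without rats 5, 8, 13 and 17, 2 without rats 3, 5, 8 and 13, and 0 to 4 with 1 rat left out. Withdrawal against control gave 47 with DESeq2 and 0 to 2 with 1 rat left out. Withdrawal against chronic ethanol gave 83 at an adjusted p of 0.10, 301 with DESeq2, 2 without rats 5, 8, 13 and 17, 41 without rats 3, 5, 8 and 13, and 0 to 24 with 1 rat left out. The cause of these differences was not tested.

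Of the 40 tested collagen genes, 28, 29 and 17 had changes of both signs over the settings, in the order chronic ethanol or withdrawal against control, then withdrawal against chronic ethanol. Values follow for Col1a1, Col3a1, Col4a1 and Col4a2. Col4a1 in chronic ethanol against control gave 0.0067 with limma-voom, 0.0804 without rats 3, 5, 8 and 13, and -0.0932 to 0.0949 with 1 rat left out (0.0949 without rat 3, 0.0296 without rat 6, 0.0444 without rat 8). Col4a2 gave -0.0065 to 0.0745 with 1 rat left out, and was below 0 without rat 7 (-0.0065) and without rat 11 (-0.0021). Col1a1 in chronic ethanol gave 0.0412 without rats 3, 5, 8 and 13. In withdrawal against control, Col1a1 gave 0.16 with the index, 0.14 with limma-voom, 0.40 without rats 3, 5, 8 and 13, and -0.52 (without rat 13) to 0.64 (without rat 3) with 1 rat left out, with 0.0237 without rat 18. Col3a1 gave 0.12 with limma-voom, 0.41 without rats 3, 5, 8 and 13 and -0.71 (without rat 13) to 0.80 (without rat 3) with 1 rat left out.

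The control difference of fibrillar and basement membrane means was 1.07 with Col18a1 in the second class and 1.33 without Col24a1 and Col27a1. Correlations moved as follows. Without rat 3, r was 0.339 for Col1a1 with Col4a1 and -0.0556 for Col4a1 with Cldn5. Within rats 1 to 8 it was 0.536 for Col1a1 with Col4a1. Within rats 9 to 16 it was 0.627 for that pair, 0.717 for Col1a1 with Dcn, -0.0618 for Col4a1 with Col4a2 and -0.690 for Col4a1 with Cldn5. Without the 2 farthest rats, r was 0.110, 0.566, 0.460 and -0.104 for these 4 pairs. Settings for Col1a2 gave no value because it was listed at 0. Median changes of all genes stayed within 0.1 of 0 on the log2 scale under RLE factors. Depth limits genes below about 0.1 CPM, such as Col10a1.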
